A study of Mus musculus with 6 samples.

Results

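The cells described here, from MC38 tumours, were chosen by transcripts that mark mature, migratory dendritic cells (DC). They are called mature DC after the rule given next. Chosen cells without Fscn1 held several genes of this state at lower levels, as given below, so the name is less sure for them. A cell barcode was taken when it had at least 300 genes, at least 500 UMIs (unique molecular identifiers, 1 per captured transcript) and at most 10% mitochondrial counts. It also had no Cd3e UMI, at least 3 UMIs of the MHC class II gene H2-Aa, at least 1 UMI of Ccr7 and at least 1 UMI of 2 or more of Fscn1, Ccl22, Cacnb3 and Il4i1. The complement genes C1qa, C1qb and C1qc, which mark tumour macrophages, together had to stay under 20 per 10000 UMIs of the cell. This gave 147 cells of 39424 kept cells (0.373%), out of 41679 barcodes in all. Libraries of the cko group held 28, 16 and 29 of them and libraries of the ctr group 33, 25 and 16.

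Both groups were mice with tumours of wild-type MC38, a mouse colon adenocarcinoma line placed under the skin, and live CD45-positive leukocytes had been sorted from the tumours at day 25. In the cko group Ctcf, which encodes a DNA-binding organiser of chromatin loops, was knocked out in regulatory T cells (Treg cells) by a tamoxifen-inducible system, and in the ctr group Ctcf was wild type in Treg cells (3 libraries each, called biological replicates by the labels). The sources used here do not give the promoter that drove the deletion, the tamoxifen schedule, the strain, or the age and sex of the mice. The labels do not name DC as a target of the deletion, and Ctcf in the summed counts of these DC stood at 23.2, 40.8 and 36.9 CPM in cko and 49, 41.5 and 33.7 CPM in ctr (log2 -0.37, SE 0.36, adjusted p = 0.677, edgeR), where CPM are counts per 1000000 counts of the same sum.

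Conventional DC take up antigen in a tissue and, once activated, leave it for the draining lymph node, where they show the antigen to T cells. On the way they switch on Ccr7, the chemokine receptor that guides them along lymphatic vessels, and Fscn1, which bundles actin in their long processes, and they raise costimulatory proteins through NF-κB. In tumours such cells carry activating genes (Cd40, Il12b) beside inhibitory ones (Cd274, Cd200, Socs2), and the chemokines Ccl22 and Ccl17 are known to attract Treg cells through Ccr4.

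Libraries held 45322797 to 53473461 UMIs in cko and 54224947 to 55515267 UMIs in ctr. Receptor clonotypes of the T cells of cko replicates 1 and 3 overlapped, with 197 in common of 616 and 711. Those 197 held 82.0% of the cells with a clonotype in cko replicate 1 and 69.8% in cko replicate 3. No other pair of libraries had more than 3 in common. The main tests and the SD values with n = 3 still count cko replicates 1 and 3 as separate libraries. Counts of called genes are therefore also given with the counts of this pair summed into 1 library. Library pairs had 41 to 81 cell barcodes in common, and no barcode was a mature DC in both libraries of a pair. In sums of cells with Cd3e and Foxp3, Ctcf stood at 77.2, 68.9 and 65.6 CPM in cko and at 71.3, 75.0 and 97.8 CPM in ctr (70.6 ± 6.01 and 81.3 ± 14.3 CPM, SD, n = 3 each; exact two-sided permutation p = 0.3). Which exons were deleted is not stated in the labels, so this level does not check them. With 3 libraries against 3, the smallest p that an exact test can give is 0.1.

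The marker genes of the rule were detected less often in other myeloid gates. This contrast is in large part set by the choice of cells, since the members were chosen on these genes. Fscn1 was found in 61.9% of mature DC, 0.860% of cDC1-gate cells, 2.5% of cDC2-gate cells and 1.29% of macrophage-gate cells, and Cacnb3 in 68.0%, 1.29%, 0% and 0.246%. The 0% for Cacnb3 is 0 of 320 cells, which allows a share of up to 0.938%. Ccl22 was found in 92.5% of mature DC and 13.4% of cDC2-gate cells, and Il4i1, a secreted amino acid oxidase, in 95.2% and 19.1%. Median depth was 13567 UMIs in mature DC, 16734 in the cDC1 gate, 12463 in the cDC2 gate and 8604 in the macrophage gate. The cDC1 and cDC2 gates hold conventional DC of type 1 and 2 without a Ccr7 UMI, chosen by at least 2 of Xcr1, Clec9a, Wdfy4, Snx22 and Tlr3 or by Cd209a with Clec10a, Mgl2 or Flt3, and the macrophage gate holds H2-Aa cells with C1q at or over the limit. The marker part of the rule was met by 11 of 4877 macrophage-gate cells (0.226%, Wilson 95% interval 0.126% to 0.403%). It was met by 147 of 6363 H2-Aa cells under the C1q limit (2.31%, 1.97% to 2.71%). Such intervals cover counting error only. Those 11 cells had a median of 16938 UMIs, so free RNA, doublets and cells that express these genes cannot be told apart.

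Among genes that the rule did not use, mature DC had high levels of several activation genes. These are descriptions without a test, since the cells were chosen on their transcripts. In counts summed over libraries, Il12b, a subunit of the cytokines IL-12 and IL-23, stood at 431 and 2.66 CPM in mature DC and in the other H2-Aa cells under the C1q limit. The lipid carrier Fabp5 stood at 2494 and 101 CPM, the inhibitory ligand Cd200 at 185 and 3.13 CPM, the cytokine brake Socs2 at 288 and 12.9 CPM and the tetraspanin Cd63 at 747 and 33.1 CPM. Ly75, an antigen uptake receptor (CD205), stood at 124 and 5.74 CPM, and Stat4, a factor of cytokine signalling, at 238 and 13.8 CPM. Zmynd15 stood at 618 and 36.3 CPM. It overlaps Cxcl16 on the opposite strand, and strand use in counting is not stated in the sources, so reads of these genes cannot be told apart. No UMI of the tryptophan-degrading enzyme gene Ido1 was found in any mature DC, and 0 of 147 cells allows a share of up to 2.04%.

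The cells chosen are described in 2 parts, with and without an Fscn1 UMI. Whether these parts are separate kinds of cell was not tested. At least 1 Fscn1 UMI was found in 91 cells, of which 75 had 10 or more, and none in 56 cells. Cells without Fscn1 were not shallower, with a median of 15334.5 UMIs per cell against 12106 in cells with it. Ccl22 was detected in 54 of the 56 cells without Fscn1, Il4i1 in 55 and Cacnb3 in 18, against 82, 85 and 82 of the 91 cells with Fscn1. The rule requires Ccr7 and at least 2 of these genes in a cell without Fscn1, so those numbers are in part set by the choice of cells.

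The Fscn1-positive cells held several activation genes at higher levels. These levels are counts summed over libraries, and they mix the groups, since Fscn1-positive cells were 34 cko and 57 ctr cells and Fscn1-negative cells 39 cko and 17 ctr cells, with none from ctr replicate 3. For each gene the order was therefore also read within the 5 libraries that held cells of both parts. Relb, an NF-κB subunit, stood at 555 CPM in Fscn1-positive cells, 202 CPM in Fscn1-negative cells, 39 CPM in the cDC1 gate and 54.0 CPM in the cDC2 gate. Il12b stood at 699.7 and 79.6 CPM in Fscn1-positive and Fscn1-negative cells, Socs2 at 451 and 73.9 CPM, Cd200 at 288 and 51.1 CPM, and Ccl5, a chemokine for T cells, at 5826 and 847 CPM. The cDC genes Zbtb46, a transcription factor (82.8 and 29.5 CPM), and Flt3, a growth factor receptor (86.3 and 21.6 CPM), were likewise higher in Fscn1-positive cells. Each of these 7 genes was higher in Fscn1-positive cells in all 5 libraries. Without cko replicate 1, Il12b stood at 44.3 CPM in Fscn1-negative cells. Cd274 stood at 420.0 and 388 CPM, and was higher in Fscn1-positive cells in 5 of 5 libraries. Ccr7 itself (4485 and 3771 CPM), Cd83 (1149 and 1169 CPM) and Ccl17 (2136 and 2076 CPM) had no common order, with Fscn1-positive cells higher in 3, 3 and 2 of the 5 libraries.

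Fscn1-negative cells carried other genes. Plet1 stood at 499 and 14.8 CPM in Fscn1-negative and Fscn1-positive cells, the decoy receptor Il1r2 at 1029 and 97.6 CPM and the endotoxin co-receptor Cd14 at 411 and 29.6 CPM. The integrin Itgax stood at 213 and 34 CPM and the class II gene H2-Ab1 at 11571 and 4334 CPM. The cDC2 marker Clec10a stood at 77.3 and 11.3 CPM. These 6 genes were higher in Fscn1-negative cells in all 5 libraries, and the cDC2 marker Mgl2 (916 and 258 CPM) in 4 of 5. Some of the low Fscn1-positive values rest on 1 library. Without cko replicate 3 they were 28.5 CPM for Il1r2, 18 CPM for Cd14, 3.17 CPM for Clec10a and 153 CPM for Mgl2, and Plet1 stood at 7.2 CPM without ctr replicate 1 and Cd14 at 19.7 CPM without cko replicate 1. Lyz2, a lysozyme of monocytes and macrophages, stood at 272 and 272 CPM, with 111 CPM in Fscn1-positive cells without cko replicate 1, and it was higher in Fscn1-negative cells in 4 of 5 libraries. Apoe stood at 12.5 and 54.9 CPM, or 7.83 CPM in Fscn1-negative cells without ctr replicate 1 and 25.8 CPM in Fscn1-positive cells without ctr replicate 3, against 10092 CPM in the macrophage gate.

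**Figure D1:**
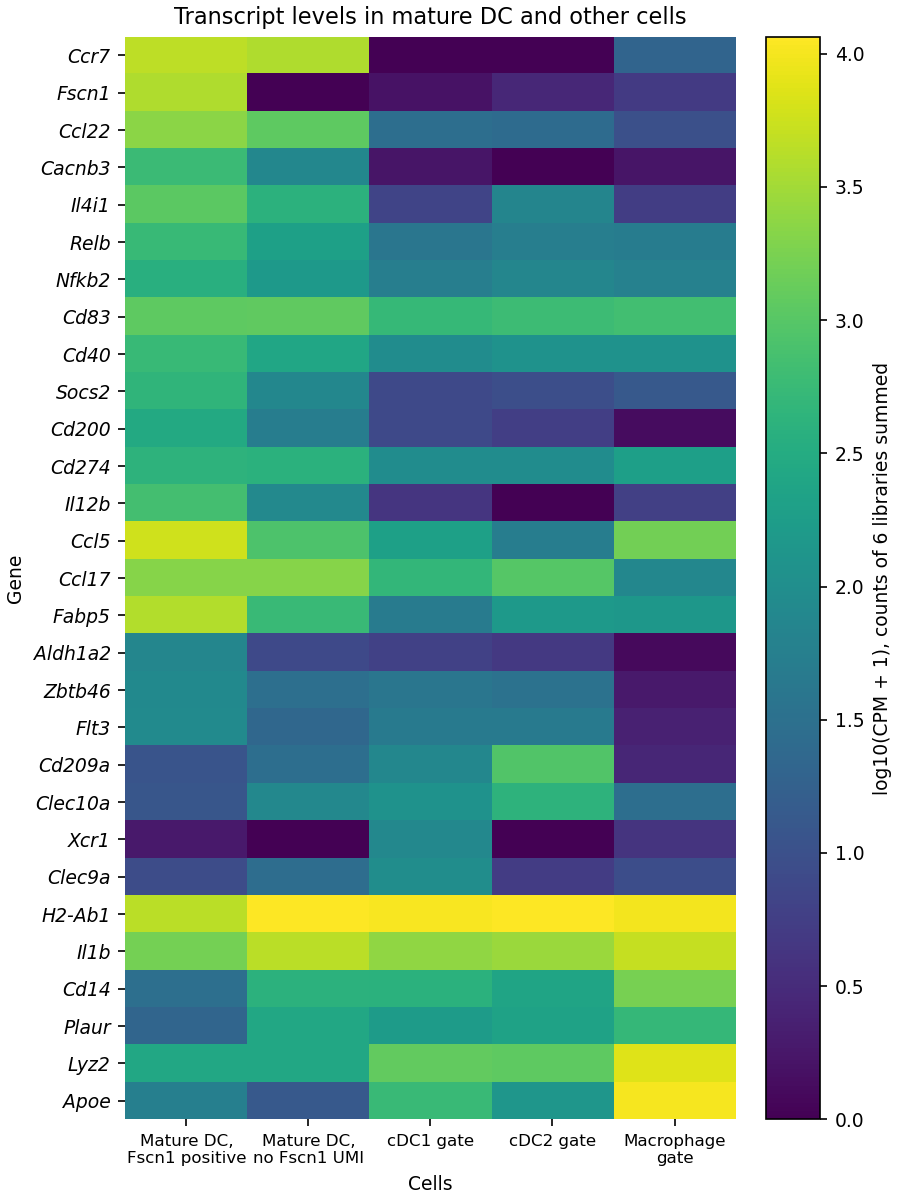
Levels of 29 genes as log10(CPM + 1) in counts summed over the 6 libraries, with genes down the page and cell sets across. Fscn1-positive mature DC stand out in Fscn1, Cacnb3, Il12b, Socs2 and Cd200, while mature DC without an Fscn1 UMI keep Ccr7, Ccl22 and Ccl17 and have more H2-Ab1.

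Along the limit of the rule, Relb and Socs2 fell with each marker fewer. All 4 other markers were found in 74 members (24 cko and 50 ctr), exactly 3 in 25 (18 and 7) and exactly 2 in 48 (31 and 17). A further 137 cells just outside had Ccr7 and 1 other marker (95 and 42). The levels are counts summed over libraries, so they mix the groups in unequal parts, and no order within libraries was read here. From all 4 markers down to 1, Relb stood at 579, 399.9, 161 and 106 CPM and Socs2 at 519, 143, 45.3 and 15.8 CPM. H2-Ab1 stood at 3335, 8349.5, 12676 and 12497 CPM in the same order. In these 3 genes, members with exactly 2 markers stood nearer to the cells just outside than to members with all 4. In Cd274 (434, 403, 369 and 269 CPM) and Cd83 (1143, 1261, 1127 and 941 CPM), and in Apoe and Lyz2, they stood nearer to members with all 4. The name mature DC is that of the rule, and the first 3 genes go against it for members with exactly 2. At the C1q limit, 4 cells with 20 to 40 per 10000 UMIs were left out, and 112 members had no C1q UMI.

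Markers of other cells were mostly low in the members. Summed over each list, T cell markers stood at 10.2 to 30 CPM in cko and 8.3 to 42 CPM in ctr libraries, NK markers at 0 to 2.32 CPM in cko and 0 to 21 CPM in ctr and neutrophil markers at 4.62 to 5.1 CPM in cko and 0 CPM in ctr. B cell markers stood at 2.31 to 10.2 CPM in cko and 0 to 337 CPM in ctr, with the highest value in ctr replicate 3 and at most 9.34 CPM in the other ctr libraries. Macrophage markers stood at 122 to 316 CPM in cko and 79.4 to 381 CPM in ctr, against 13123 CPM in the macrophage gate, and monocyte markers at 499.6 to 1706 CPM in cko and 249.8 to 1161 CPM in ctr. The sum of the 4 cDC2 markers did not overlap, at 862 to 960.1 CPM in cko and 61.7 to 549 CPM in ctr. Retnlg, Pax5, Siglech, Cd207, Krt8 and Krt19 were at 0. No member had a T cell receptor contig, and 7 members, 4 in ctr replicate 1 and 3 in ctr replicate 3, were among the barcodes with the highest doublet scores.

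The first comparison asks whether the loss of Ctcf in Treg cells went with a different share of mature DC. No difference was detected. Mature DC made up 0.410%, 0.261% and 0.418% of kept cells in cko libraries and 0.515%, 0.428% and 0.220% in ctr libraries. The values of the groups overlapped. The means were 0.363% ± 0.0884 in cko and 0.387% ± 0.152 in ctr (SD, n = 3 each; exact two-sided permutation p = 0.8). Of H2-Aa cells under the C1q limit, mature DC made up 2.34% ± 0.477 in cko and 2.37% ± 1.19 in ctr (exact permutation p = 0.9).

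Other antigen-presenting gates had lower shares in all 3 cko libraries, at the smallest p of the exact test. The cDC1 gate held 0.600% ± 0.180 of kept cells in cko and 1.82% ± 0.697 in ctr, the cDC2 gate 0.551% ± 0.199 and 1.1% ± 0.348, and the macrophage gate 6.39% ± 1.91 and 18.6% ± 4.90 (exact permutation p = 0.1 for each, 0.233 after Benjamini-Hochberg adjustment over 7 shares). In edgeR's test on the cell numbers, adjusted over 6 gates, the cDC1 gate (log2 -1.6, SE 0.48, adjusted p = 0.008) and the macrophage gate (-1.54, SE 0.35, adjusted p = 0.00114) were lower in cko, and the cDC2 gate (-0.995, adjusted p = 0.0856) and mature DC (-0.08, adjusted p = 0.97) did not pass. There were 0.438, 0.168 and 0.433 mature DC per cDC1-gate plus cDC2-gate cell in cko and 0.214, 0.105 and 0.0958 in ctr (exact permutation p = 0.2, adjusted 0.35). These groups overlapped, since cko replicate 2 lay below ctr replicate 1. Shares are of sorted leukocytes, so a lower share of 1 kind raises the others. With at least 1 other marker in place of 2, the gate held 284 cells, 68, 50 and 50 in cko and 45, 37 and 34 in ctr, and the mean share of kept cells was 0.243 percentage points higher in cko (exact permutation p = 0.1).

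The share of members with an Fscn1 UMI is given as a description without a test, since Fscn1 is 1 of the genes of the rule and the split was chosen after the values were seen. Fscn1 was detected in 14 of 28, 7 of 16 and 13 of 29 members of cko libraries (50%, 43.8% and 44.8%). In ctr libraries it was detected in 25 of 33, 16 of 25 and 16 of 16 (75.8%, 64.0% and 100%). The means were 46.2% ± 3.34 in cko and 79.9% ± 18.4 in ctr (SD, n = 3 each), and the libraries of the groups did not overlap. Wilson 95% intervals ran from 23.1% to 67.4% over the cko libraries and from 44.5% to 100% over the ctr libraries. As shares of kept cells, Fscn1-positive members made up 0.169% ± 0.0481 in cko and 0.295% ± 0.0870 in ctr, and Fscn1-negative members 0.194% ± 0.0430 in cko and 0.0929% ± 0.0818 in ctr. The difference of the means, cko minus ctr, was -33.7 percentage points, -35.2 when Fscn1 was read after thinning cells to 2000 UMIs, and -19.4 among the 99 members with at least 3 of the 4 other markers. At least 2 of Cd209a, Clec10a and Mgl2 were detected in 20 of 73 cko members (5, 4 and 11 by library) and 4 of 74 ctr members (3, 1 and 0). At least 1 of them was detected in 45 cko and 25 ctr members. At least 2 of the cDC1-gate markers were detected in 5 cko and 7 ctr members, and at least 1 in 33 and 21.

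**Figure D2:**
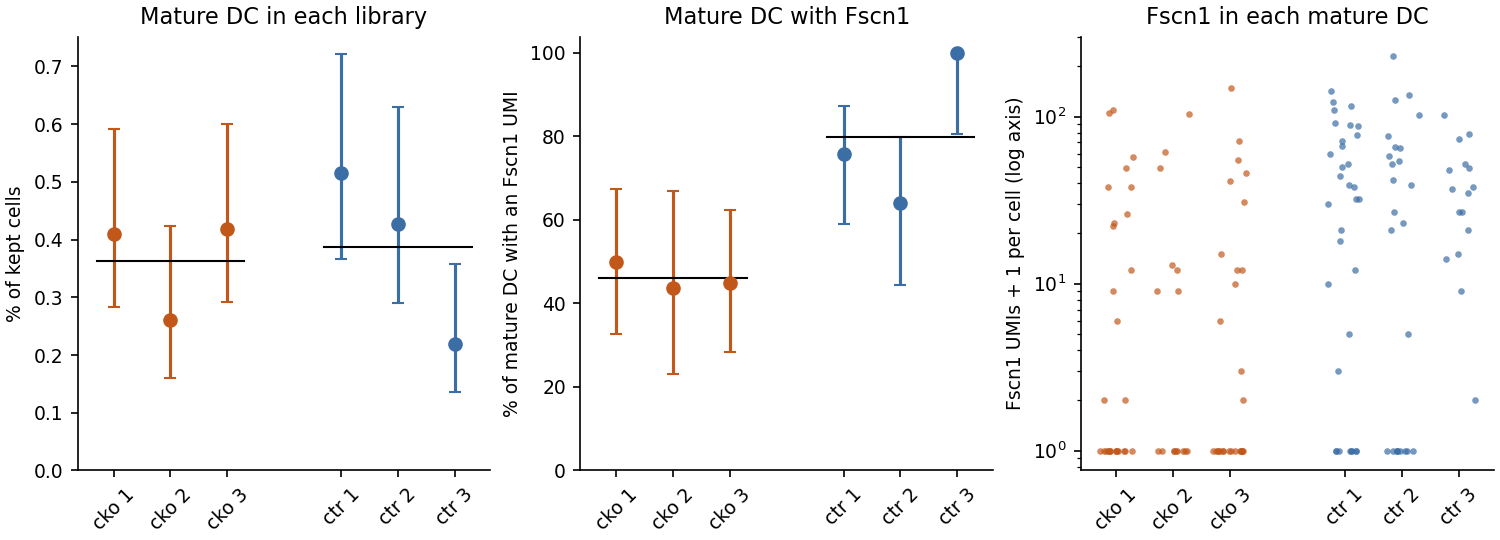
Left, mature DC as a percentage of kept cells per library. Middle, the percentage of mature DC with an Fscn1 UMI. Points are libraries with Wilson 95% intervals and lines are group means. Right, Fscn1 UMIs + 1 in each mature DC on a log axis. The shares of the 3 cko and 3 ctr libraries overlap, while all 3 cko libraries lie at 50% or below for Fscn1 and all 3 ctr libraries at 64.0% or above.

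The next comparison asks which genes differ within mature DC. Counts were summed over the members of each library (430152, 196162 and 433283 UMIs in cko and 428424, 361296 and 178267 in ctr) and compared with edgeR's quasi-likelihood test, with Benjamini-Hochberg adjustment over 4131 genes and a threshold of 0.05. Of these, 132 genes passed (3.2%), 97 higher in cko (2.35%) and 35 lower (0.847%), and the median log2 change of all tested genes was -0.01. Groups did not overlap in 20.9% of tested genes. In a sum, fewer cells with a transcript and less of it per cell cannot be told apart. The share of Fscn1-positive members did not overlap between the same libraries. With that share as a term in the fit, 6 genes passed, and 8 of 2391 passed when the Fscn1-positive members alone were summed. The count was 53 with cko replicates 1 and 3 summed into 1 library, 46 without cko replicate 1, 46 without cko replicate 3 and 63 without ctr replicate 1.

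The genes of the rule are described without a test, since the members were chosen on them. Fscn1 stood at 1125, 1269 and 1016 CPM in cko and 3256, 3053 and 3433 CPM in ctr (log2 -1.49), without overlap. Among members with at least 3 of the 4 other markers its log2 change was -0.999. Ccr7 stood at 5198, 4679.8 and 4237 CPM in cko and 3646, 3158 and 4331 CPM in ctr, with overlapping groups (log2 0.37). The chemokine Ccl22 stood at 1255 ± 501 CPM in cko and 2141 ± 507 CPM in ctr (log2 -0.74). Cacnb3, a calcium channel subunit, gave a log2 change of -0.64 and Il4i1 -0.49.

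Maturation and costimulation genes gave 1 call among 15 tested members of an 18-gene list, with a list median of -0.18. Icosl, the ligand of the T cell receptor Icos, fell to 25.6, 56.1 and 50.8 CPM in cko, against 114, 105 and 168 CPM in ctr (log2 -1.53, SE 0.33, adjusted p = 0.0227). The call was lost with cko replicates 1 and 3 summed (adjusted p = 0.0604) and without cko replicate 1, cko replicate 3 or ctr replicate 3. Cd83 stood at 1250.0 ± 69.5 CPM in cko and 1099.8 ± 141 CPM in ctr (log2 0.22). The costimulatory ligands Cd80, Cd86 and Tnfsf9 gave log2 changes of 0.37, 0.38 and -0.30, the receptor Cd40 -0.16, and the NF-κB genes Relb and Nfkb2 -0.33 and -0.23. None of these 7 passed, with adjusted p of 0.44 to 0.752. Cd70, a ligand of Cd27 on T cells, was too low to be tested, at 2.32, 15.3 and 11.5 CPM in cko and 51.4, 16.6 and 28 CPM in ctr.

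Immune regulation genes gave 2 calls, both lower, among 15 tested members of a 20-gene list (median -0.02). Aldh1a2, the enzyme that makes retinoic acid from retinal, stood at 0, 0 and 4.62 CPM in cko and 81.7, 122 and 50.5 CPM in ctr. It had 2 UMIs in the cko sums and 88 in the ctr sums, a ratio of 0.0208 with a counting interval of 0.00248 to 0.0773 (adjusted p = 0.00135, edgeR). Aldh1a2 passed the count filter through ctr alone, the group where it was high, so this p is a weak support. It was detected in 2 of 73 cko cells and 22 of 74 ctr cells. In the Fscn1-positive cells it was found in 0 of 34 cko cells, which allows a share of up to 8.82%, and in 19 of 57 ctr cells. On UMI counts alone, the level there was at least 18.7-fold lower in cko, taking 3 counts over the group as the limit for 0. This limit and the counting interval treat UMIs as independent and leave out the spread between cells and libraries. One ctr cell held 28 of the 88 UMIs. Fas, a death receptor, fell to 11.6, 30.6 and 20.8 CPM in cko, against 77, 85.8 and 33.7 CPM in ctr (log2 -1.81, SE 0.43, adjusted p = 0.0416). It was no longer called with cko replicates 1 and 3 summed (0.116) or without any library other than ctr replicate 3.

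The checkpoint ligand genes Cd274 and Pdcd1lg2, which encode PD-L1 and PD-L2, did not pass. Cd274 stood at 493, 469 and 480.1 CPM in cko and 308, 357 and 280.5 CPM in ctr, without overlap (log2 0.63, SE 0.18, adjusted p = 0.0847). Pdcd1lg2 stood at 362 ± 46.7 CPM in cko and 265 ± 76.5 CPM in ctr (0.51, adjusted p = 0.294). Cd200 (-0.51, adjusted p = 0.24) and the cytokine brakes Socs1 (-0.30, adjusted p = 0.809) and Socs2 (-0.70, adjusted p = 0.063) did not pass either, although all 3 ctr libraries lay above all 3 cko libraries for Cd200 and Socs2.

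For Fscn1, Aldh1a2 and Icosl, which were lower in cko in these sums, the bases just before the gene start are shown because NF-κB drives DC maturation. They come from the RefSeq promoter table of build GRCm38.p6, on the plus strand, and stop before the first base annotated as transcribed. Capitals mark a match to the 10-base NF-κB consensus, searched on both strands.
Fscn1, chr5:142960205-142960342: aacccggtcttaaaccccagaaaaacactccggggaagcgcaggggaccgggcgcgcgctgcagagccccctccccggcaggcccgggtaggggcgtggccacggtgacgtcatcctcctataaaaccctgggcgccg
Aldh1a2, chr9:71215639-71215788: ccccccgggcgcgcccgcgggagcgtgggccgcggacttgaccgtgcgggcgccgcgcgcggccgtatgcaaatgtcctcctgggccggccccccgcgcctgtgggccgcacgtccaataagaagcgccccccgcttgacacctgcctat
Icosl, chr10:78069218-78069301: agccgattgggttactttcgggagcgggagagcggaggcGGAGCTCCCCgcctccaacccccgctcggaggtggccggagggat
The Icosl stretch held 1 match and the other stretches held none, which says only that these letters are not in these windows. Over 150 bases before the start, 4.6% of 32851 promoters in the table held a match. By gene, a match was found for 268 of 3314 tested genes with a promoter in the table (8.09%), 7 of 83 higher genes (8.43%) and 5 of 27 lower genes (18.5%).

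Chemokine and cytokine genes gave 1 higher and 1 lower call among 13 tested members of a 20-gene list (median -0.50). Il1b, the gene of the inflammatory cytokine interleukin 1 beta, rose to 5277, 3563 and 3734 CPM in cko, against 829, 1727 and 886 CPM in ctr (log2 1.89, SE 0.34, adjusted p = 0.0426). Tnf, another inflammatory cytokine gene, fell to 18.6, 35.7 and 18.5 CPM in cko, against 114, 74.7 and 95.4 CPM in ctr (log2 -2.06, SE 0.36, adjusted p = 0.0101). Neither pair of groups overlapped. The Il1b call was lost with cko replicates 1 and 3 summed (0.0923) and without any library other than ctr replicate 2. The Tnf call was lost without cko replicate 1 or cko replicate 3 (highest adjusted p 0.0567). Monocyte and macrophage marker sums, given above, overlapped between the groups. The 3 monocyte markers tested, of 5, had positive log2 changes without passing, with 1.17 (adjusted p = 0.659) for Ly6c2, 0.57 (adjusted p = 0.685) for Plac8 and 1.01 (adjusted p = 0.732) for Lyz2. Their median was 1.01, and 1.67 over the 2 tested in Fscn1-positive members. Of the macrophage markers, Fcgr1 passed, and Csf1r and Apoe, with log2 changes of 2.21 (adjusted p = 0.212) and -2.10 (adjusted p = 0.567), did not. The part of these cells in the Il1b result and in that of Cd14, given below, was not tested. The markers were named after their values were seen.

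Of the chemokines for T cells, Ccl5 stood at 2620.0, 1642 and 2626 CPM in cko and 5383, 5400.0 and 3293 CPM in ctr, without overlap and without passing (log2 -1.0, SE 0.26, adjusted p = 0.106). Ccl17 stood at 1614 ± 892 CPM in cko and 2502 ± 683 CPM in ctr (-0.62, adjusted p = 0.616), and Cxcl9, induced by interferon gamma, at 1051 ± 101 CPM in cko and 604 ± 289 CPM in ctr (0.78, adjusted p = 0.328). Cxcl16 gave 0.23, adjusted p = 0.555. Il12b stood at 244, 127 and 561 CPM in cko and 521, 349 and 847 CPM in ctr, with overlapping groups (log2 -0.78, SE 0.58, adjusted p = 0.602). The T and NK cell growth factor gene Il15 gave -0.13, adjusted p = 0.918, its presenting receptor Il15ra -1.07, adjusted p = 0.106, and Ebi3, a subunit of IL-27 and IL-35, -0.90, adjusted p = 0.113.

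Migration and cytoskeleton genes gave 2 higher and 2 lower calls among 18 tested of 20 (median -0.07). Cxcr4, the receptor of the chemokine Cxcl12, rose to 97.6, 107 and 127 CPM in cko, against 25.7, 33.2 and 16.8 CPM in ctr (log2 2.07, SE 0.32, adjusted p = 0.00432). The integrin chain Itgb7 was higher in cko, at 99.5 ± 13.3 CPM in cko and 40.9 ± 13.7 CPM in ctr (log2 1.31, SE 0.32, adjusted p = 0.0431). Anxa3, a membrane-binding annexin, fell by 1.14 on that scale (SE 0.23, adjusted p = 0.0181), at 207 ± 54.9 CPM in cko and 466 ± 83.9 CPM in ctr. The actin-binding gene Lsp1 fell by 0.59 (SE 0.15, adjusted p = 0.0459). With cko replicates 1 and 3 summed, Cxcr4 and Anxa3 passed, and Itgb7 (0.109) and Lsp1 (0.088) did not. Itgb7 and Lsp1 were lost without any library other than ctr replicate 2, and Anxa3 without cko replicate 1, cko replicate 2 or ctr replicate 3.

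Antigen presentation and interferon genes are given by list, beside a share of 3.2% called among all 4131 genes tested (2.35% higher and 0.847% lower). None of 11 tested class II genes passed (median 0.41), and H2-Ab1 stood at 10406, 7178 and 9022 CPM in cko and 5618, 6869.7 and 2653 CPM in ctr, without overlap (log2 0.83, SE 0.39, adjusted p = 0.415). Its regulator Ciita gave 0.41, adjusted p = 0.658. None of 21 class I genes (median 0.05) and none of 23 interferon gamma response genes (median 0.46) passed. Of 18 tested type I interferon response genes 2 were called, both higher, and all 18 had a positive log2 change (median 0.94). Rsad2, an antiviral enzyme, rose to 44.2, 102 and 113 CPM in cko, against 18.7, 22.1 and 16.8 CPM in ctr (log2 2.11, SE 0.42, adjusted p = 0.0181). Bst2, which tethers virus particles and is also on the plasmacytoid DC list, rose to 732, 530.2 and 789 CPM in cko, against 315, 365 and 258 CPM in ctr (log2 1.15, SE 0.21, adjusted p = 0.011, and 0.0502 with cko replicates 1 and 3 summed). Bst2 was also lost without cko replicate 1 or 3, and Rsad2 without cko replicate 3 or ctr replicate 1.

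Lineage genes were not called in any of 13 tested members of a 21-gene cDC list (median 0.10). The tested cDC2 markers had positive log2 changes and the 2 tested cDC1 markers negative ones, although cells with at least 1 cDC1-gate marker, given above, were not fewer in cko. Of the 4 cDC2 markers 3 were tested, with no overlap between the groups and without passing, at log2 changes of 2.35 (adjusted p = 0.055) for Clec10a, 1.32 (adjusted p = 0.501) for Mgl2 and 1.08 (adjusted p = 0.0757) for Sirpa, and their median was 1.32, or 1.76 over the 2 tested in Fscn1-positive members. Of the 6 cDC1 markers 2 were tested and neither passed (median -0.53), with -0.23 (adjusted p = 0.815) for Wdfy4. These markers were named after their values were seen. Zbtb46 gave -0.48, adjusted p = 0.521, Flt3 -0.50, adjusted p = 0.547, and the cDC1 transcription factors Irf8 0.12, adjusted p = 0.814 and Batf3 -0.84, adjusted p = 0.333. Irf4, a factor of cDC2 and of DC migration, was too low to be tested, at 11.6, 0 and 27.7 CPM in cko and 23.3, 16.6 and 28 CPM in ctr. Of 13 tested cholesterol and lipid genes 1 passed (median -0.41). Fabp5 fell to 1346, 892 and 1893 CPM in cko, against 4094, 2939 and 3736 CPM in ctr (log2 -1.35, SE 0.27, adjusted p = 0.0434, and 0.063 with cko replicates 1 and 3 summed), and its call was lost without cko replicate 1 or without any ctr library. Of 14 survival and death genes Fas alone passed (median 0.08). Of 19 dissociation stress genes the chaperone Hspa1b passed (log2 -1.04, SE 0.23, adjusted p = 0.0363; list median -0.01), and it was lost with cko replicates 1 and 3 summed (0.052) and without cko replicate 1, cko replicate 2, ctr replicate 1 or ctr replicate 3. Both tested proliferation genes missed the threshold.

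Cd14, 1 of 5 tested pattern recognition genes, rose to 469.6, 357 and 238 CPM in cko, against 14, 41.5 and 0 CPM in ctr (log2 4.06, SE 0.58, adjusted p = 0.0122), and was lost without ctr replicate 1. Plaur, the receptor of urokinase, rose to 214, 285 and 205 CPM in cko, against 11.7, 41.5 and 16.8 CPM in ctr (log2 3.28, SE 0.36, adjusted p = 0.000347). Both genes, with Sgk1 and Slc7a11, were also among the 25 genes with the highest ratio of Fscn1-negative over Fscn1-positive members. Summed over libraries, Fscn1-negative members had 569 CPM of Cd14 in cko and 71.6 CPM in ctr, and Fscn1-positive members 71.9 CPM in cko and 1.45 CPM in ctr. Plaur stood at 361 CPM in cko and 71.6 CPM in ctr Fscn1-negative members, and at 43.6 CPM in cko and 4.36 CPM in ctr Fscn1-positive members.

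Slc7a11, the cystine carrier of the antioxidant response, rose to 214, 158 and 228 CPM in cko, against 30.3, 19.4 and 28 CPM in ctr (log2 2.98, SE 0.30, adjusted p = 0.000195). Smox, which oxidises spermine, rose by 2.97 in log2 units (122 ± 3.06 CPM in cko and 14.9 ± 4.15 CPM in ctr) and the small GTPase Rrad by 2.65 (364 ± 92.3 CPM in cko and 58.2 ± 16.8 CPM in ctr). The kinase Sgk1 (log2 3.48), the semaphorin Sema4d (2.79), the matrix protein Thbs1 (3.51) and the inflammasome sensor Nlrp3 (2.99) were also higher, with adjusted p of 0.011 to 0.0363. Slc35f6 had 35 UMIs in cko and 1 in ctr (adjusted p = 0.0101, edgeR), and it passed the count filter through cko alone. The ratio was 32.0, with a counting interval of 5.37 to 1299 that leaves out the spread between cells and libraries. Of these calls, Sema4d and Slc35f6 were lost without cko replicate 1, Slc35f6 also without cko replicate 3, Thbs1 and Sgk1 without cko replicate 1 or ctr replicate 1, Sgk1 also without ctr replicate 3, and Nlrp3 without ctr replicate 1 or 3. The Fc receptor Fcgr1, a macrophage marker, rose by 1.5 on the log2 scale (adjusted p = 0.0459), and its call was lost without any 1 of the 6 libraries.

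Among the lower genes, Nudt17, a hydrolase gene at 207 and 0.432 CPM in mature DC and in the other H2-Aa cells, fell to 105, 107 and 64.6 CPM in cko, against 324, 354 and 325 CPM in ctr (log2 -1.86, SE 0.24, adjusted p = 0.00145). It overlaps Pias3 on the opposite strand. Car2, a carbonic anhydrase, fell to 20.9, 20.4 and 20.8 CPM in cko, against 67.7, 69.2 and 84.1 CPM in ctr (log2 -1.76, SE 0.33, adjusted p = 0.0122). The activity-induced gene Arc (log2 -2.63), the transcription factor Tcf7 (-2.34), Mab21l3 (-2.29), the sulfhydryl oxidase Gfer (-1.92) and the troponin Tnni2 (-1.76) also fell, with adjusted p of 0.0181 to 0.0469. Car2 was lost without cko replicate 1 or 3, Arc without cko replicate 3 or ctr replicate 1, Tcf7 and Mab21l3 without cko replicate 1, cko replicate 3 or ctr replicate 1, and Gfer and Tnni2 without any library other than ctr replicate 2. Of the 32 named genes past the threshold, Fscn1 among them, 8 stayed past it without any 1 library. They were Aldh1a2, Plaur, Slc7a11, Smox, Rrad, Nudt17 and Cxcr4, and the rule gene Fscn1, for which this is no test. With at least 3 of the 4 other markers required, 17 of the 32 were tested and 5 passed, namely Aldh1a2, Rrad, Itgb7, Bst2 and Fabp5. The 12 that missed the threshold there were Slc7a11 (0.0735), Nudt17 (0.101), Icosl, Arc, Tcf7, Tnf, Car2, Anxa3, Lsp1, Il1b and Hspa1b, with adjusted p of 0.0735 to 0.305, and the rule gene Fscn1, again without a test. Plaur, Smox and Cxcr4 were among the 15 under the count filter. With cko replicates 1 and 3 summed 16 passed and 15 did not, and Nlrp3 was not tested. With DESeq2 19 of the 32 passed, Fas, Itgb7, Lsp1 and Fcgr1 missed the threshold, and 9 had no adjusted p. Without the highest doublet scores 29 passed, Itgb7 and Fcgr1 missed it, and 1 was not tested.

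**Figure D3:**
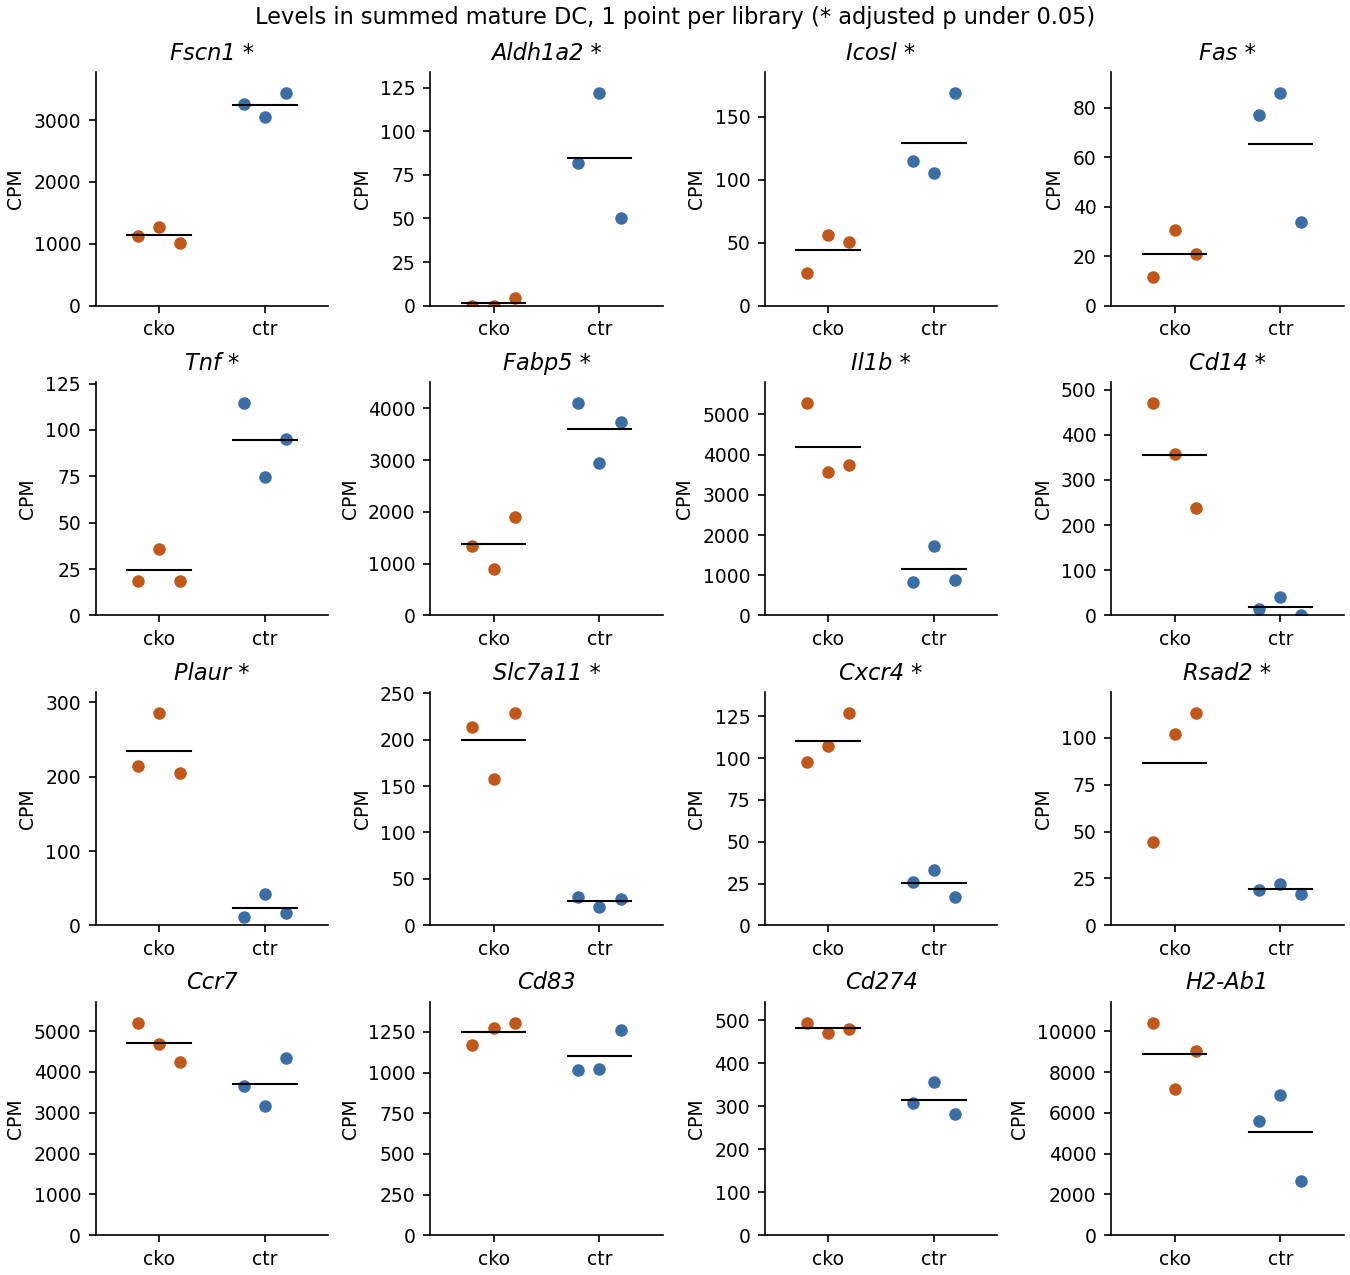
CPM in summed mature DC for 16 genes, with 1 point per library, cko left of ctr, and lines at the group means. An asterisk marks an adjusted p under 0.05, which for Fscn1, a gene of the rule, is no test. The groups do not overlap for the 12 marked genes, nor for Cd274 and H2-Ab1, which did not pass, and they overlap for Ccr7 and Cd83.

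Restricting the sums to Fscn1-positive members, which left 34 cko and 57 ctr cells, asks which genes differ within the cells that carry Fscn1. Of 2391 genes 8 passed (0.335%), 6 higher (0.251%) and 2 lower (0.0836%). Hilpda, a lipid droplet protein, stood at 126, 119 and 139 CPM in cko and at 0 in every ctr library, so it passed the count filter through cko alone. On UMI counts alone it was at least 30.0-fold higher in cko, with 3 counts over the group as the limit for 0. This limit leaves out the spread between cells and libraries. Over all mature DC, Hilpda stood at 293, 209 and 381 CPM in cko and 86.4, 36.0 and 0 CPM in ctr. It did not pass there (adjusted p = 0.0977, edgeR). The cytokine gene Mif rose to 1078, 942 and 932 CPM in cko, against 223, 367 and 353 CPM in ctr (log2 1.63, adjusted p = 0.0202). Malt1, a protease of NF-κB signalling, rose in log2 units by 1.86 (adjusted p = 0.038), the kinase Map4k4 by 1.16 (adjusted p = 0.038), the nuclear lamina gene Lmnb1 by 1.54 (adjusted p = 0.0407) and the growth inhibitor Btg2 by 1.40 (adjusted p = 0.0407). The co-chaperone Bag3 fell by 3.03 (adjusted p = 0.038) and Gm34084 by 3.64 (adjusted p = 0.038). Of these 8 genes, 5 also passed over all members. Hilpda, Btg2 (adjusted p = 0.292, edgeR) and Gm34084 (0.135) did not pass there. All 8 were named after their values were seen.

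In the same cells Fscn1 itself stood at 2648, 3302 and 2192 CPM in cko and 4438, 5622 and 3433 CPM in ctr (log2 -0.78). Log2 changes there, with adjusted p in brackets, were -2.06 (0.0974) for Tnf, -1.13 (0.126) for Icosl, -1.85 (0.238) for Fas, -0.95 (0.0741) for Fabp5 and -1.34 (0.055) for Hspa1b. They were 1.52 (0.33) for Il1b, 2.23 (0.1) for Slc7a11, 1.98 (0.0974) for Rrad and 1.49 (0.1) for Bst2, and none of these passed. Aldh1a2, Cd14, Plaur and Cxcr4 were under the count filter in this fit. The 10 type I interferon genes tested had a median of 1.28, against 0.01 for all genes tested, and none passed. With the Fscn1-positive share of each library as a term over all members, Aldh1a2, Thbs1, Nr4a2, Procr and Osm passed. So did the rule gene Fscn1, for which this is no test. That term takes up part of the contrast between the groups, since the shares do not overlap.

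**Figure D4:**
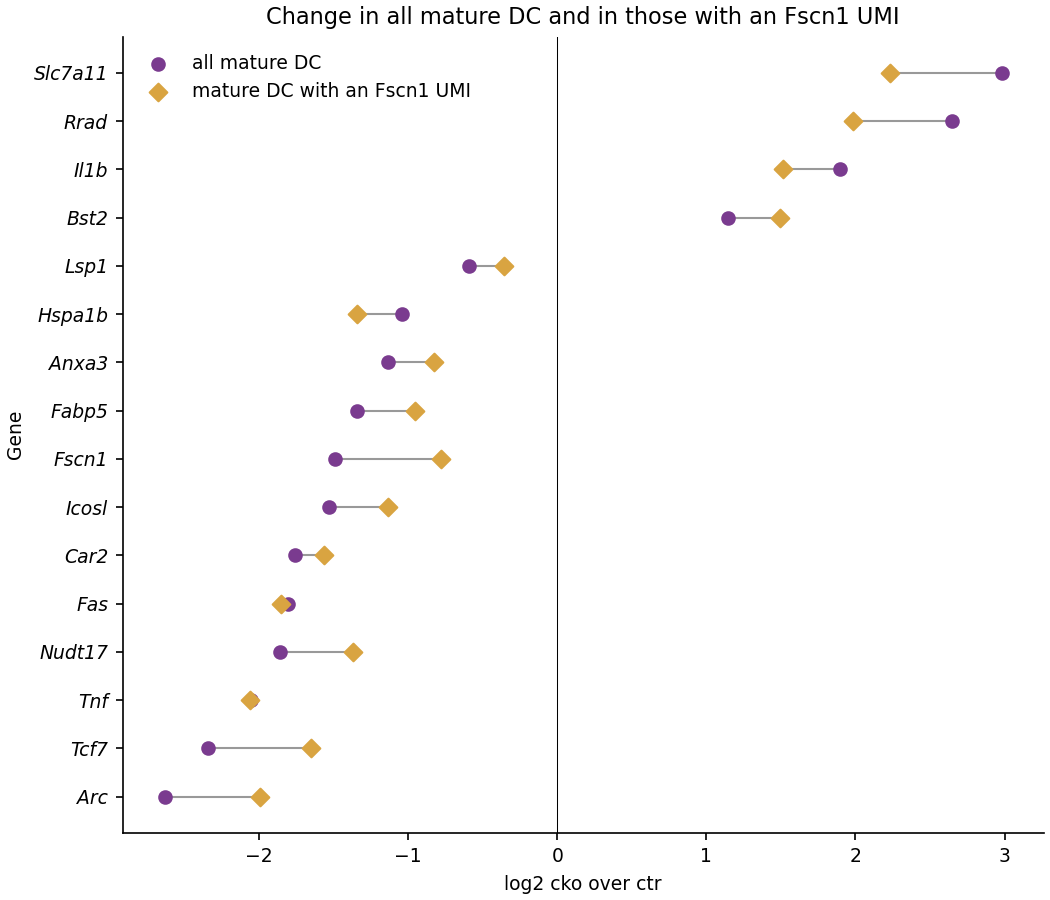
Log2 change of cko over ctr for the 16 named genes past the threshold in all mature DC that could also be tested in the mature DC with an Fscn1 UMI. Circles are all mature DC and diamonds the Fscn1-positive ones, which are part of them. The diamond of Fscn1 lies at -0.78 and its circle at -1.49.

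The last comparison asks whether mature DC changed differently from cDC2-gate cells of the same tumours, of which libraries held 35, 47 and 26 in cko and 50, 86 and 76 in ctr. The difference of the cko over ctr changes was tested as an interaction with the library as a block. Of 5269 genes 18 passed (0.342%), 14 with a higher (0.266%) and 4 with a lower change in mature DC (0.0759%). Irf8 stood at 967, 1279.6 and 1295 CPM in cko and 782, 1265 and 1290.2 CPM in ctr mature DC, and at 319.9, 250.2 and 357 CPM in cko and 80.9, 131 and 153 CPM in ctr cDC2-gate cells (difference -1.24, SE 0.21, adjusted p = 0.0313). Id2, an inhibitor of E proteins needed for cDC1, stood at 507, 296 and 552 CPM in cko and 1041, 465 and 600.2 CPM in ctr mature DC, and at 61, 34.6 and 76.4 CPM in cko and 353, 275 and 236 CPM in ctr cDC2-gate cells (difference 1.79, SE 0.26, adjusted p = 0.0107). In mature DC neither gene passed alone.

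Cxcr4, higher in cko mature DC, stood at 90.5, 78.9 and 119 CPM in cko and 101, 83 and 82.8 CPM in ctr cDC2-gate cells (difference 1.97, SE 0.36, adjusted p = 0.035). Rsad2 (difference 2.90, 0.035), the phosphatidylserine-binding gene Mfge8 (2.63, 0.0313) and Ccrl2, which binds the attractant chemerin (2.17, 0.0107), also had a higher change in mature DC, with the adjusted p given after each difference. So had the glycolysis genes Eno1 (1.06, 0.015) and Ldha (1.07, 0.035) and the iron storage gene Fth1 (1.35, 0.035). The NF-κB adaptor Traf1 (-1.03, 0.0486) and the filament gene Vim (-0.69, 0.0313) had a lower change. With the cDC1 gate in place of the cDC2 gate 15 genes passed, and the differences were -0.18 for Irf8 and 0.29 for Id2, which did not pass, and 2.0 for Cxcr4 and 3.17 for Mfge8, which did. None of the 18 genes passed under every alternative, and 131 of 282 values missed the threshold. Id2 missed it under 1 of 16 alternatives and Ccrl2 under 2 of 16, neither by leaving out a library. Mfge8 missed it without cko replicate 2, cko replicate 3 or ctr replicate 1, Irf8 without cko replicate 1, cko replicate 3 or ctr replicate 1, and Eno1 without cko replicate 2 or ctr replicate 3. Cxcr4, Ldha and Traf1 missed it without any library other than ctr replicate 2, Rsad2 and Vim without cko replicate 1, cko replicate 2, ctr replicate 1 or ctr replicate 3, and Fth1 without any cko library or ctr replicate 1. With at least 3 of the 4 other markers, Irf8, Cxcr4, Rsad2, Eno1, Ldha, Fth1 and Traf1 missed it, and with cko replicates 1 and 3 summed Irf8, Cxcr4, Ldha, Fth1, Traf1 and Vim did. The count was 5 without cko replicate 2, 5 without ctr replicate 1, 9 without cko replicate 1, 9 without ctr replicate 3 and 53 without ctr replicate 2.

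**Figure D5:**
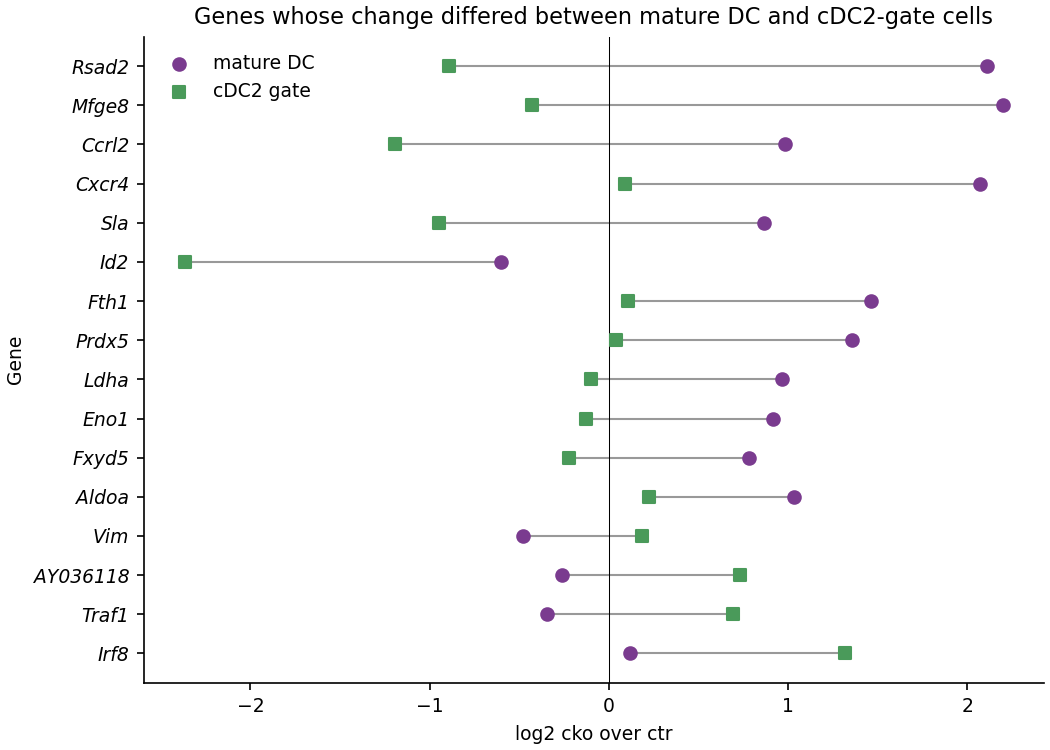
Log2 change of cko over ctr in mature DC (circles) and in cDC2-gate cells (squares) for 16 of the 18 genes whose changes differed, without Hmox1 and Hspb1, which had at most 11.6 CPM in any mature DC sum. For Cxcr4 the circle lies at 2.07 and the square at 0.09, and for Irf8 the circle lies at 0.12 and the square at 1.32.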

How the data were processed

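Raw UMI counts per gene and barcode were used as deposited, with no scaling by the authors. They were made with Cell Ranger 7.0.0 on mm10 (GRCm38), per the submitters' processing notes, from 5′ libraries of sorted CD45-positive cells. Whether doublets or free RNA were removed earlier is not stated in the sources. No doublets were removed in the main results. Scrublet's automatic threshold marked 295 of 41679 barcodes, and as an alternative the 2328 barcodes with the highest scores were left out.

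Counts of the members were summed per library and compared with edgeR 4.0.16 in R 4.3.3 (TMM, filterByExpr, robust quasi-likelihood fit, Benjamini-Hochberg over all genes tested, threshold 0.05), with DESeq2 1.42.0 as an alternative. The count filter worked by group, so a gene near 0 in 1 group entered a fit through the other group alone. Among others, Aldh1a2, Arc and Mab21l3 entered through ctr, and Slc35f6, Thbs1, Sgk1, Nlrp3 and Sema4d through cko. SE is the absolute log2 change over the square root of the F statistic. Shares were compared with exact permutation tests. On simulated counts of 3839 genes for the comparison of mature DC, the test recovered 36.7% of genes changed by 1 on the log2 scale, 94.9% by 2 and 100% by 3, with 6 false calls.

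Genes are named if they were key genes of this state, had up to 10 of the largest rises or falls past the threshold with a mean of at least 20 CPM in a group and no overlap, or were members of the lists past the threshold. Receptor and immunoglobulin segments and sex-linked genes are counted but not named. The members, lists and rule were chosen with earlier results of these data known. Alternatives covered depth, gates, doublets, normalization, the count filter, pairing and each library.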

Additional observations from a re-analysis of the deposited data

Results flagged for a closer look

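For 18 genes the log2 change of cko over ctr in mature DC minus that in cDC2-gate cells passed the interaction test, which is why they are listed. Changes were lower in mature DC for Irf8 (-1.24), Traf1 (-1.03), AY036118 (-0.95) and Vim (-0.69). They were higher in mature DC for Aldoa (0.83), Fxyd5 (1.01), Eno1 (1.06), Ldha (1.07), Prdx5 (1.24), Fth1 (1.35), Id2 (1.79) and Sla (1.85), and for Cxcr4 (1.97), Ccrl2 (2.17), Mfge8 (2.63) and Rsad2 (2.90). Hmox1 (6.06) and Hspb1 (9.46) had at most 11.6 CPM in any mature DC sum, and Hspb1 stood at 0 in all 3 cko and at 174, 59.1 and 292 CPM in ctr cDC2-gate sums, so these fitted values are no measure of size. None of the 18 passed under every alternative. The share of Fscn1-positive cells did not overlap between the groups, and its part in these differences was not tested.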

How the results depend on the processing

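The difference in the share of mature DC among kept cells (-0.0244 percentage points, cko minus ctr) missed the threshold under the alternatives run. The sign of this difference changed with at least 1 other marker (0.243), without the highest doublet scores (0.0121) and without barcodes with a T cell receptor contig (0.0486). The difference ranged from -0.108 to 0.0394 with 1 library left out. Among H2-Aa cells under the C1q limit (-0.0303) the sign changed with at least 1 other marker (1.77), Ccr7 at 2 UMIs or more (0.0256), C1q under 5 per 10000 (0.0177), without the highest doublet scores (0.213) and in edgeR's test on cell numbers (log2 ratio 0.0397), and it ranged from -0.447 to 0.650 with 1 library left out. The cause was not tested. The share with Fscn1 (-33.7 points), a description, was -19.4 with at least 3 of the 4 other markers and ranged from -41.7 to -23.7, and Ctcf in Foxp3-positive T cells from -15.8 to -2.58 CPM, with 1 library left out. Of genes in mature DC (132), 297 passed with no count filter (of 12785 tested), 17 with at least 3 other markers (of 2488), 8 with Fscn1-positive members only, 6 with their share as a term, 53 with cko replicates 1 and 3 summed into 1 library, 115 with DESeq2 and 46 to 195 with 1 library left out. The interaction count (18) was 128 with no count filter and 5 to 53 with 1 library left out. The groups have replicate numbers in common, and the labels do not say whether the numbers pair libraries. Deviations of same-numbered libraries correlated at -0.02, -0.04 and 0.02. With 3 libraries in a group and sums of as few as 16 cells, such correlations cannot settle whether they are paired. With the replicate block 92 genes passed, and paired sign-flip tests of the differences -0.0244, -0.0303 and -10.8 gave exact p of 0.5 to 1. The block leaves the difference -33.7 as it is. The 32 named genes past the threshold, with the rule gene Fscn1 counted among them, gave 498 values under alternatives. Of these values, 168 missed the threshold and none changed sign. Aldh1a2 passed wherever it was tested, and it entered the main fit through ctr alone. Of 524 values of the 31 named genes that missed it, 8 passed. Of 282 values of the 18 interaction genes, 131 missed it.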
